A study of Mus musculus with 28 samples.

Results

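Heterozygous loss of Kdm6a was examined in the epidermis of young female mice by setting 3 heterozygous libraries (genotype Cre+; Utx +/fl) against young female control libraries (Cre-; Utx fl/fl). These 3 heterozygous and 4 control libraries are 7 of the 28 poly(A) RNA-seq libraries of the series. Genes were kept where either group mean was at least 10 normalized counts in the authors' deposited table, which left 8418 of 16370 genes. Genes after Olfr577 in alphabetical order were not analysed, so these counts cover only a part of the genes. Kdm6a, also called Utx, was deleted with a Krt14-Cre transgene, which is active in keratinocytes of the basal layer and passes the deletion to their descendants. Every control was Cre-negative, so heterozygous loss and presence of Cre cannot be told apart in this comparison. The 5 young conditional knockout (cKO) females were Cre+; Utx fl/fl, the 3 young male cKO libraries Cre+; Utx fl/Y, and the male controls Cre-; Utx fl/Y, except male control 3, which was Cre-; Utx +/Y. The aged females, 2 controls and 2 cKO, had the genotypes of the young ones. Presence of Cre thus followed the groups in these comparisons as well. The titles of the tables, and not the labels, tell young from aged, and nothing in the labels says that libraries of a group came from separate animals, so p-values measure the spread between libraries, which may be technical.

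Kdm6a lies on the X chromosome and encodes UTX, a histone H3K27 demethylase that also works inside the enhancer-activating complexes of KMT2C and KMT2D. In female mice it is known to escape X inactivation, so heterozygous cells are expected to keep expression from the intact copy only. Interferon-stimulated genes, which figure among the genes described here, are induced when STAT and IRF factors bind a short promoter element after interferon signalling, and keratinocytes are able to mount this response.

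The heterozygous libraries were available as a group mean, without values per library, so their spread is known only through the standard errors (SE) and p-values of the authors' deposited table. In that table the mean over libraries weighted the control mean by exactly 0.4, as 2 controls beside 3 heterozygous libraries would. A weighted sum of young female controls 3 and 4 came within 5% of the deposited control mean for 99.1% of 6876 genes, against 12.4% to 42.9% for the other 5 pairs. Controls 3 and 4, the heterozygous libraries and cKO 3, 4 and 5 carry library numbers from the same 2 runs of numbers, and controls 1 and 2 do not, so cKO 3 to 5 over controls 3 and 4 is the cKO value set beside the heterozygous one below. The sums of normalized values per young female library were 19.3 to 22.6 M, and those of the heterozygous libraries were not used here. In the authors' deposited table Kdm6a (chrX:18162575-18279936, GRCm38) was 1715 in controls and 1425 in heterozygous epidermis, which did not pass, with a difference of -0.27 in log2, an SE of 0.21 and an adjusted p of 1.0. The per-library table, which is scaled separately, gave Kdm6a as 1265, 1484, 1368 and 1663 in controls 1 to 4 and as 976, 873, 1075, 1154 and 1017 in cKO 1 to 5, without overlap. How Kdm6a was counted is not given in the sources used here. If it was counted over the whole gene, these levels include RNA from outside the deleted part. The Y-linked genes Ddx3y, Eif2s3y and Kdm5d were at 0 in the authors' deposited table of the heterozygous comparison. Keratinocyte markers were abundant in both groups, with Krt5 at 247552 and 253191 and Krt10 at 333894 and 315243 in control and heterozygous means of the authors' deposited table.

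Few of the genes analysed differed between heterozygous and control epidermis beyond the spread between libraries. Up to Olfr577, where the rows analysed end, the authors' deposited table called 25 of 9226 genes (0.271%) at an adjusted p below 0.05. Of the 9226, 24 were called higher (0.26%) and 1 lower (0.0108%). Later genes were not counted, so further calls may lie among them. Of the genes that rose, 8 belong to a list of 52 interferon-response genes, and others encode growth hormone and single enzymes such as Cyp2g1 and Akr1c18. All 25 were among the genes kept. On the scale log2((heterozygous mean + 1)/(control mean + 1)), called the log2 ratio here, the median over the 8418 genes was 0.01, and 51.9% lay above 0. A gene with 1 mean below 10 was kept through the other mean alone, so that rule fixed the direction of its ratio. A rise of at least 2-fold was found for 288 genes (3.42%) and a fall of at least 2-fold for 53 (0.63%), so 341 genes (4.05%) passed the fold in either direction, and 265 of the 288 were not called or had no adjusted p in the authors' deposited table. These large ratios lay mostly among weakly expressed genes: 185 of the 1389 genes whose larger mean was 10 to 50 rose past the fold (13.3%), against 10 of 2905 genes at 1000 or more (0.344%). The median SE in the authors' deposited table was 0.74 and 0.15 in these 2 classes. At the limit of the fold, Adam22 lay just inside (1.001) and Fa2h just outside (0.9955).

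**Figure D1:**
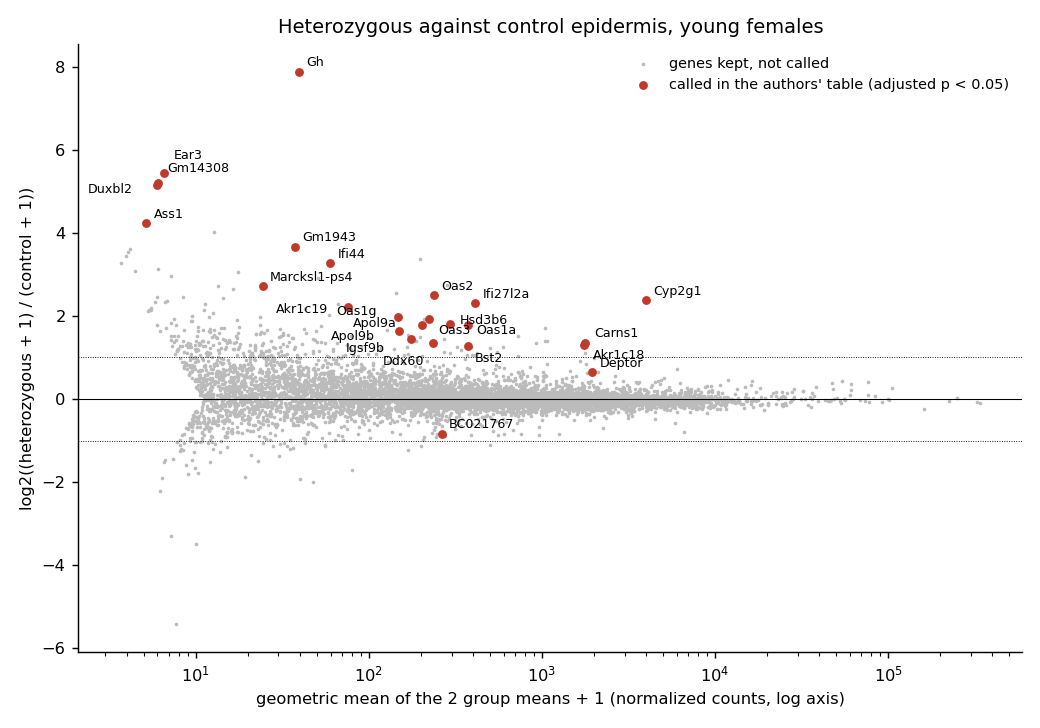
Log2 ratio of heterozygous over control means (vertical axis) against the geometric mean of both group means plus 1 in normalized counts (horizontal log axis) for the 8418 genes kept, with the 25 genes called in the authors' deposited table in red and dotted lines at a ratio of 2-fold. Ratios spread most at low means, and the called genes include strongly expressed ones such as Cyp2g1 and Deptor.

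The genes of the interferon response were the largest named group among those that rose. Of the 52 listed genes 38 were kept, and all 38 had a log2 ratio above 0, where 51.9% of all genes kept did. The median of the 38 was 0.83 (0.01 over all genes kept), 18 were at least 2-fold higher and 8 were called in the authors' deposited table. The 8 were Ifi44, the antiviral oligoadenylate synthetase genes Oas2, Oas3, Oas1a and Oas1g, whose products activate RNase L, Ifi27l2a, the helicase gene Ddx60 and Bst2, which encodes the virus-tethering protein tetherin. The 4 Oas genes lie in the same stretch of chromosome 5, with Oas2 at chr5:120730333-120749853, Oas3 at chr5:120753098-120777661, Oas1g at chr5:120876142-120887613 and Oas1a at chr5:120896256-120907521 (GRCm38, minus strand). Oas1a and Oas1g are close copies, so reads may have been split between them, and the counting is not given in the sources used here. Promoter windows of 4 of the 8 are shown because these genes rose together and each window holds the core of the element bound by interferon-activated factors. Each runs 5′ to 3′ on the gene's strand, from 250 bases before to 50 after the annotated start, as RefSeq gives it for GRCm38.p6: chr5:120907476-120907775 (minus) for Oas1a, chr5:120887564-120887863 (minus) for Oas1g, chr8:71537423-71537722 (minus) for Bst2 and chr8:61927837-61928136 (plus) for Ddx60. Capitals mark GAAA, any 2 bases and GAAA again, or the same read on the other strand (TTTC, any 2 bases, TTTC), and matches that overlap are run together.
Oas1a: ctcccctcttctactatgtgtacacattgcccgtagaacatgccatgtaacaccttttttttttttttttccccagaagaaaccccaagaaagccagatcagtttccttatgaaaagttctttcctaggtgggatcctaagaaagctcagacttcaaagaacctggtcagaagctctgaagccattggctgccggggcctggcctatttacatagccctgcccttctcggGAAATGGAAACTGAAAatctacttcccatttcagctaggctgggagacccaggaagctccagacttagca
Oas1g: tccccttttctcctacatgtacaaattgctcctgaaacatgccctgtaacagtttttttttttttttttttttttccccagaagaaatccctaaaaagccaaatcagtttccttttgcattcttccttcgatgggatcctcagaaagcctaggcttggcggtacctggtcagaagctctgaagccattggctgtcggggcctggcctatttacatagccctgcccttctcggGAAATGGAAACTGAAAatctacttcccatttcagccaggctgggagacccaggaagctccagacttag
Bst2: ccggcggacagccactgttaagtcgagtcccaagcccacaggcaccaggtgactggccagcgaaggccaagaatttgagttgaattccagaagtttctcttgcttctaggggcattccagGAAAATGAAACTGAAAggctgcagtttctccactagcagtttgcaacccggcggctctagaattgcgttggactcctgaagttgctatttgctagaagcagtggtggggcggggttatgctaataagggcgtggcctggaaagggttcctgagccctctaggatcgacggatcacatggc
Ddx60: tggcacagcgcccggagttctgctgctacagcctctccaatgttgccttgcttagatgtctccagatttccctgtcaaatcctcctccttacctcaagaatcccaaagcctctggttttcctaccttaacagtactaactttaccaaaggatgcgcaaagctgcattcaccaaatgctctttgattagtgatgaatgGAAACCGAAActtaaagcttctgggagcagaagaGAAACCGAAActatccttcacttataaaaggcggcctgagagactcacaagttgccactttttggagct
In Oas1a and Oas1g the capitals are 2 overlapping matches within 20 bases before the start, in Bst2 2 overlapping matches that begin 130 and 124 bases before it, and in Ddx60 2 separate ones that begin 53 and 19 bases before it. Oas3 had 1 match, 75 bases before its start, and Ifi44 had 0. By gene, 5 of 6 called interferon genes with a window held a match (83.3%), as did 19 of the 30 kept interferon genes with one (63.3%), 2 of 7 other genes that rose (28.6%) and 241 of the 6546 genes kept with a window (3.68%). Over all RefSeq windows of this length the share was 3.44% (1131 of 32851). A match describes the letters of the window and does not show binding.

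Ifi44, an interferon-induced gene, had the highest ratio of the list: 18.2 in controls and 184 in heterozygous epidermis in the authors' deposited table, a log2 change of 3.34 (SE 0.55, adjusted p = 2.07e-06). Its control libraries 1 to 4 held 7.84, 29.7, 18.2 and 14.3. Rescaled to the heterozygous table, the highest control was 33.9, so the heterozygous mean stood above every control. In the authors' deposited table Oas2 went from 99.5 to 565 (a log2 change of 2.51, SE 0.37, adjusted p = 4.17e-08), and Ifi27l2a from 184 to 915 (2.32, SE 0.35, adjusted p = 6.85e-08). The control libraries were close for both, at 53.9, 89.2, 73.8 and 100.2 for Oas2 and 110.6, 140.7, 154.4 and 167.5 for Ifi27l2a. Oas1a had the smallest SE of the 8 (0.19) and stood at 200.2 and 688 in the authors' deposited table (a log2 change of 1.78, adjusted p = 1.99e-16), although control 2 stood at 331 and the other controls at 161 to 189. Oas1g rose by 1.99, Oas3 by 1.93, Ddx60 by 1.35 and Bst2 by 1.28 (log2 changes, adjusted p at most 0.00366) in the authors' deposited table. The other 10 members past the fold were not called. Oasl1, which is 1 of these 10, was kept only through its heterozygous mean (11.6, against 4.74 in controls). Among them, the antiviral genes Ifit1 (log2 ratio 1.93, adjusted p = 1.0) and Mx1 (1.64, adjusted p = 1.0), the ubiquitin-like modifier gene Isg15 (1.23, adjusted p = 0.502), the sensor gene Dhx58 (1.26, adjusted p = 0.314) and the transcription factor gene Irf7 (1.14, adjusted p = 0.624) had the p-values given in the authors' deposited table. Apol9a and Apol9b, near-identical apolipoprotein L copies that are therefore uncertain singly, rose by 1.79 and 1.66 (log2 changes, adjusted p = 2.14e-06 and 0.0119) in the authors' deposited table. The genes that carry the interferon signal into the cell did not follow: in a list of 15 kept receptor, kinase and sensor genes the median log2 ratio was 0.01, with 8 above 0, 0 past the fold and 0 called. Its members Ifnar1 (-0.05), Ifngr1 (-0.11), Jak1 (-0.05) and Mavs (0.05) were near 0, and its highest, the sensor gene Ddx58 (0.61) and Ifih1 (0.47), are also members of the response list.

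**Figure D2:**
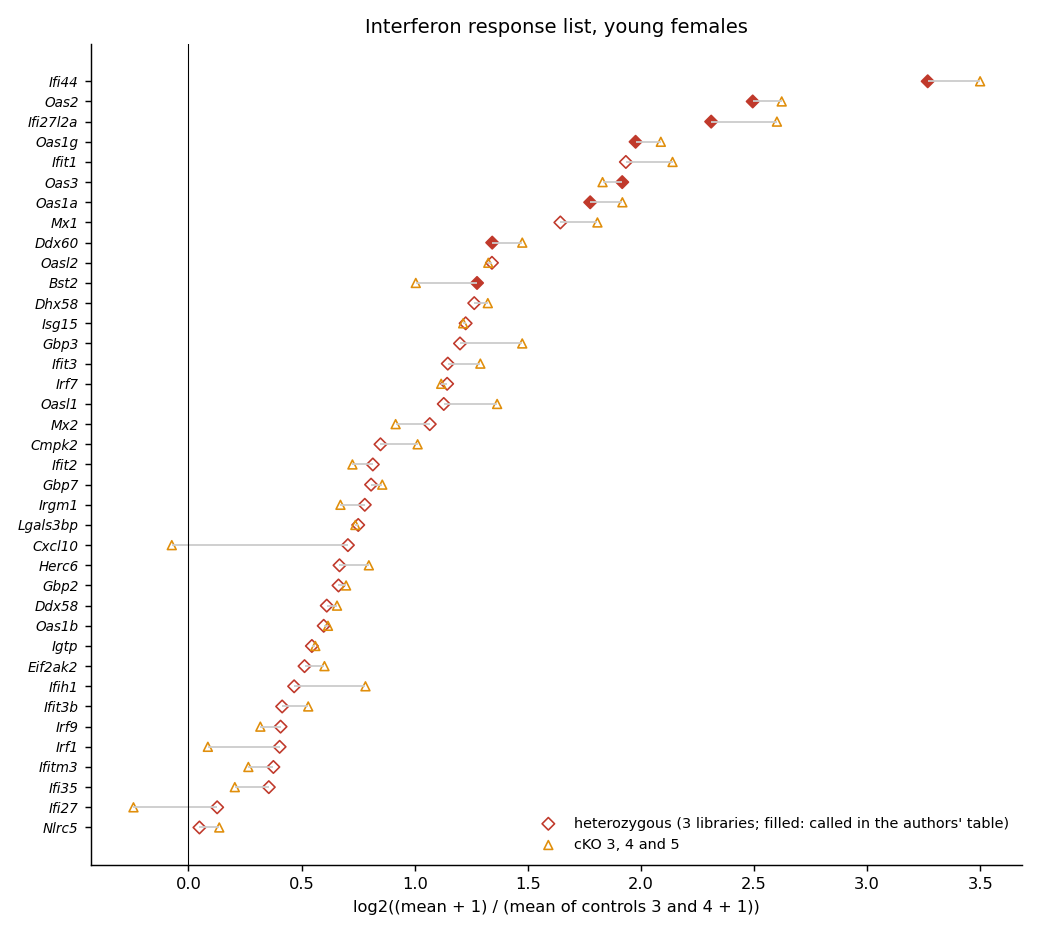
Log2 ratio of each of the 38 interferon-response genes kept, for heterozygous epidermis (diamonds, filled where called in the authors' deposited table) and for cKO libraries 3 to 5 (triangles), both over young female controls 3 and 4, which they share. All heterozygous values lie above 0, from 0.05 for Nlrc5 to 3.27 for Ifi44.

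Growth hormone, normally made by the pituitary, had the highest log2 change of the genes whose control mean was at least 1. Gh (chr11:106300271-106301865, GRCm38) had means of 1.58 and 607 in the authors' deposited table (8.58 higher in log2, with an SE of 0.90 and an adjusted p of 1.80e-17). The young female controls 1 to 4 held 0, 1.31, 0 and 2.58 normalized counts of Gh, and cKO 1 to 5 held 399, 384, 342, 352 and 405. High values were thus found in the Cre-positive groups and low ones in the Cre-negative controls. Other genes of growth hormone and insulin-like growth factor signalling were not called: the receptor gene Ghr had a log2 ratio of 0.06, the feedback inhibitor gene Cish 0.20 and the ligand gene Igf1 1.03 (adjusted p = 1.0 each in the authors' deposited table). Of the 18 kept genes of this list, 12 lay above 0, 4 were past the fold and Gh was the 1 called, with a median of 0.10. Gh itself was kept only through its heterozygous mean. Over all genes kept, 51.9% lay above 0 and 3.42% rose past the fold, and 0.26% of genes tested were called higher.

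The genes called higher also included 4 that encode enzymes, Cyp2g1, Hsd3b6, Akr1c18 and Akr1c19, of which Hsd3b6 is in none of the lists. Cyp2g1, a cytochrome P450 gene, had group means of 1748 and 9087 in the authors' deposited table, a rise of 2.38 in log2 (SE 0.53, adjusted p = 0.00684). Its controls 1 to 4 were uneven, at 3444, 2807, 1611 and 1452, and the heterozygous mean stood above the highest of them after rescaling (3932). Hsd3b6, a member of the 3-beta-hydroxysteroid dehydrogenase family of steroid enzymes, stood at 156 in controls and 552 in heterozygous epidermis in the authors' deposited table and rose by 1.82 (log2 change, SE 0.44, adjusted p = 0.0226). Its controls held 211, 186, 134 and 140.1. Akr1c18, which encodes the enzyme that inactivates progesterone, had means of 1116 and 2760 and a log2 change of 1.31 (SE 0.30, adjusted p = 0.00853) in the authors' deposited table. Its controls held 1870, 887, 895 and 1064, so control 1, which is not in the deposited control mean, lay nearest to the heterozygous level. Akr1c19, an aldo-keto reductase gene, had means of 34.2 and 162 and a log2 change of 2.24 (adjusted p = 0.0486) in the authors' deposited table, again with a high control 1 (106 against 25.1 to 34.9). Marcksl1-ps4, a pseudogene at chr13:4248735-4249025 inside the span of Akr1c19 (chr13:4228700-4252843, same strand), rose by 2.85 (adjusted p = 0.0465) in the authors' deposited table, and its reads may belong to that gene. In the list of aldo-keto reductases 11 genes were kept, 7 lay above 0, 5 were past the fold and 2 were called, with a median log2 ratio of 0.35. Akr1c13 (2.29, adjusted p = 0.456), Akr1b3 (3.43, adjusted p = 1.0) and Akr1cl (2.14, adjusted p = 1.0) were past the fold without a call in the authors' deposited table. Akr1b3 (control mean 0.194, heterozygous mean 11.9, SE 4.41) and Akr1cl (1.57 and 10.3, SE 1.48) were kept only through the heterozygous mean. Their rises past the fold therefore followed from the minimum mean. Of 13 kept Cyp2 genes, 6 lay above 0, 3 were past the fold and 1 was called, with a median of -0.00. Of the 6, Cyp2u1 was kept only through its heterozygous mean (10.1, against 5.63 in controls). Beside both lists, 51.9% of all genes kept lay above 0 and 3.42% rose past the fold, and 0.26% of genes tested were called higher. Cyp2f2 (2.75, adjusted p = 0.184) and Cyp2a5 (1.46, adjusted p = 1.0) joined Cyp2g1 past the fold, and Cyp2w1 lay at -0.89 (adjusted p = 1.0) in the authors' deposited table.

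Of the remaining genes that rose, Carns1, which encodes the enzyme that makes carnosine, went from 1105 to 2824 in the authors' deposited table (log2 change 1.35, SE 0.32, adjusted p = 0.0211). Its controls held 1358, 932, 810 and 1101. Igsf9b, an adhesion molecule gene, had means of 105 and 286 and a log2 change of 1.45 (SE 0.24, adjusted p = 1.30e-06) in the authors' deposited table, with controls at 173, 111.2, 97.0 and 97.7. Deptor, an inhibitor of mTOR kinase, had the smallest rise that was called, from 1564 to 2436 (log2 change 0.64, SE 0.11, adjusted p = 1.89e-05) in the authors' deposited table. Its controls were tight, at 1440, 1542, 1392 and 1362. Gm1943, a predicted gene, rose by 3.80 in log2 from 9.49 to 132 (adjusted p = 3.44e-09) in the authors' deposited table. The other 4 genes called higher are uncertain. Ear3, Gm14308 and Duxbl2, which belong to families of near-identical copies, were listed at practically 0 in controls and at 42.4, 35.9 and 34.3 in heterozygous epidermis in the authors' deposited table, and no fold is given for them. The per-library table gave 101.5 for Gm14308 in control 3, whose group mean in the deposited heterozygous table is near 0. Ass1, the argininosuccinate synthase gene, had means of 0.195 and 21.5 (adjusted p = 0.0439) in the authors' deposited table, while control 1 held 49.3 and the other 3 controls 0. The heterozygous mean stood above all 4 rescaled controls for 22 of the 25 called genes, where 19.1% of all genes kept did so. The exceptions were Gm14308, Ass1 and BC021767, which fell. Controls 3 and 4, on which the calls rest, are among these 4 libraries, so this count gives the calls no separate support. Ear3 and Duxbl2 are among the 22 because all 4 controls held 0.

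**Figure D3:**
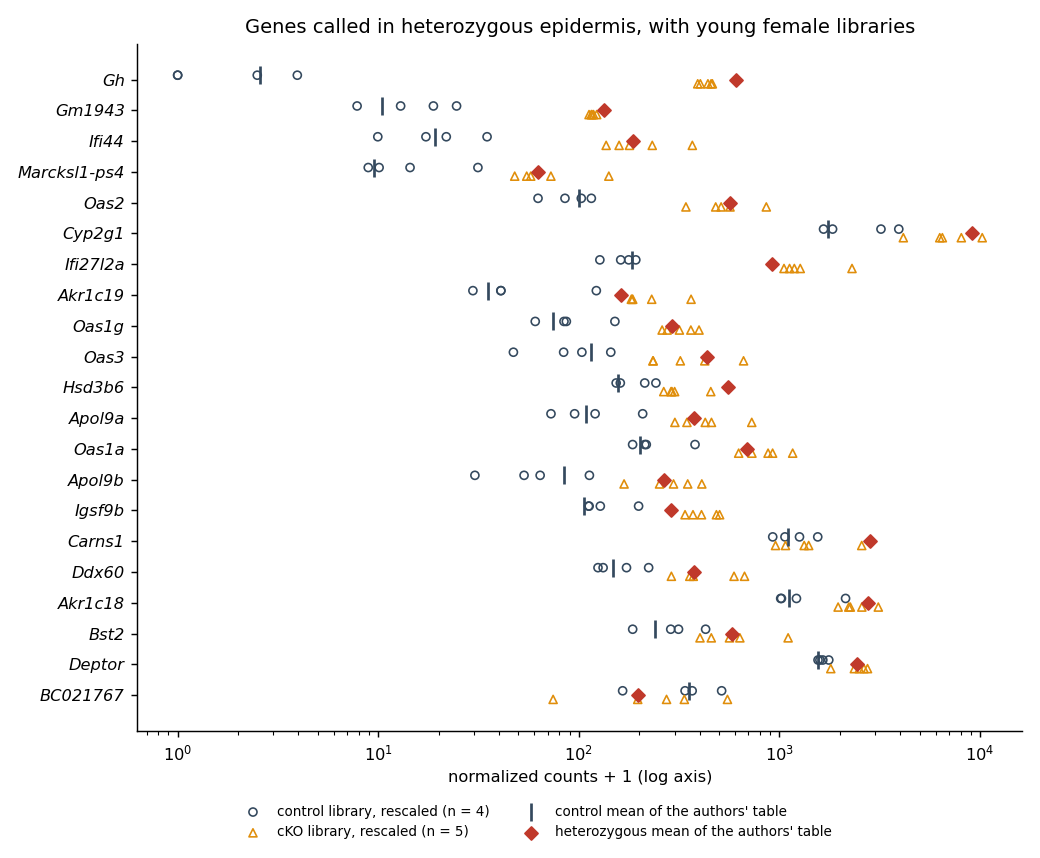
Normalized counts plus 1 (horizontal log axis) of 21 called genes (rows), for young female control libraries (circles) and cKO libraries (triangles) rescaled to the heterozygous table, with the control mean (bars) and heterozygous mean (diamonds) of the authors' deposited table. Ass1 and the copies Ear3, Gm14308 and Duxbl2 are left out. For Gh the heterozygous mean of 607 lies far above all 4 controls, while for BC021767 it lies inside their range.

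BC021767 was the 1 gene analysed that was called lower, from 352 to 196 in the authors' deposited table (log2 change -0.84, SE 0.21, adjusted p = 0.0465). Its controls held 450, 144, 321 and 296, and control 2 was lower than the heterozygous mean. No other decrease passed among the genes analysed. The nearest were Gsta1, a glutathione S-transferase gene, at 77.0 and 19.6 (log2 ratio -1.92, adjusted p = 0.0907), and the calcium channel subunit gene Cacna2d2 at 292 and 134 (-1.12, adjusted p = 0.107) in the authors' deposited table. All 4 control libraries of Gsta1 (77.6, 103, 66.9 and 68.0) were above its heterozygous mean, as for 13.9% of the genes kept after rescaling. For Cacna2d2 all 4 rescaled controls were likewise above its heterozygous mean, the lowest at 141.2 and the highest at 307. The natriuretic peptide clearance receptor gene Npr3 (-1.23, adjusted p = 0.811), Aldh3b3 (-1.19), Cd59a (-1.11), the blood group antigen gene Kel (-1.10) and Fam178b (-1.06) followed, the last 4 with an adjusted p of 1.0 in the authors' deposited table. Hba-a2 (-1.71), Duxbl1 (-1.20) and Duxbl3 (-1.14) have near-identical copies and SEs of 3.80 to 4.17 in the authors' deposited table. Among the largest rises without a call, the muscle genes Myh4 (3.37, no p given) and Actn3 (2.55, adjusted p = 1.0) and the kallikrein gene Klk1b22 (2.92, adjusted p = 1.0) had SEs of 2.10 to 3.71 in the authors' deposited table.

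Genes of the keratinocyte layers lay close to control levels. In the suprabasal differentiation list 24 genes were kept, with a median log2 ratio of -0.02, 0 past the fold and 0 called. Its members Krt1 (0.43, SE 0.31, adjusted p = 1.0) and Krt10 (-0.08, SE 0.10, adjusted p = 1.0) missed the threshold of the authors' deposited table. In the basal layer list 15 of 19 genes kept lay below 0, where 48.1% of all genes kept did, with a median of -0.23, 0 past the fold and 0 called. The lowest were Igfbp3 (-0.79), the integrin gene Itga2 (-0.48) and the laminin gene Lama3 (-0.30), while the keratin gene Krt14 stood at 0.26 and Krt5 at 0.03. Of 23 kept cornified envelope genes, 15 lay above 0 (51.9% of all genes kept did), with a median of 0.28, 0 past the fold and 0 called. The highest were the involucrin gene Ivl (0.64), Lce1h (0.62) and Lce3c (0.54), and the loricrin gene Lor stood at -0.03. SEs of Ivl, Lce1h and Lce3c were 0.64, 1.47 and 0.95 in the authors' deposited table. The barrier lipid list (median -0.14), the cholesterol synthesis list (-0.02), the cell cycle list (0.07) and the hair follicle stem cell list (0.05) had 0 members past the fold and 0 called. In the wound and stress list 12 of 15 kept genes lay above 0 (51.9% of all genes kept did), with a median of 0.28. Its members Krt16 (0.91) and Lcn2 (1.72) were not called (adjusted p = 1.0 in the authors' deposited table). Lcn2 (17.7, against 4.65 in controls) and Cxcl1 (18.7, against 8.98) were kept only through their heterozygous means. Among 20 kept enzymes of H3K4 and H3K27 methylation, Kdm6a was the lowest (-0.27), its relative Kdm6b the highest (0.18), and the partner methyltransferase genes Kmt2c and Kmt2d stood at 0.08 and 0.15, with 0 past the fold and 0 called. Among 11 kept genes known to escape X inactivation, the median was -0.06, with Ddx3x at 0.02 and Kdm5c at 0.05. On the X chromosome 263 genes were kept, of which 8 rose past the fold (3.04%) and 0 fell, with a median of 0.01. The remaining lists had 0 called members, with medians of 0.11 (p53 and senescence), -0.05 (retinoid pathway) and -0.02 (hair shaft and matrix).

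No gene in the lists of other cell types of skin was called in the authors' deposited table, and the lists differed in direction. Because these are bulk libraries, more cells of a type and more RNA per cell cannot be told apart. Beside the counts below, 51.9% of all genes kept lay above 0 and 3.42% rose past the fold. Of 15 sebaceous gland genes kept, 13 lay above 0, with a median of 0.63, and 3 were past the fold: the melanocortin receptor gene Mc5r (1.58, adjusted p = 0.127), the lipid droplet gene Cidea (1.05, adjusted p = 0.435) and the desaturase gene Fads2 (1.04, adjusted p = 1.0). Their summed level of 27585 in heterozygous epidermis lay inside the range of the rescaled controls (24486 to 28740). The largest parts of that sum were Dgat2 (9046) and Fasn (8861), so it says little about the weaker genes. Of 3 sebaceous markers, Mc5r (74.2) and Fasn stood above every rescaled control (at most 28.8 and 8203). The third, Elovl3 (364), did not (at most 393). In the skeletal muscle list 13 of 15 genes lay above 0, with a median of 1.25 and 10 past the fold. The muscle genes differed as widely between the controls themselves, since their summed rescaled values were 379 and 390 in controls 1 and 2, 6274 in control 3, 678 in control 4 and 8819 in the heterozygous mean. All 15 fibroblast genes lay above 0 (median 0.49), with Fbn1 at 2.16 and Fn1 at 1.40, and their sums were 3524 to 6391 in the rescaled controls and 8465 in heterozygous epidermis. Of these, Mfap5 was kept only through its heterozygous mean (17.7, against 6.91 in controls). All 17 Langerhans and myeloid genes lay above 0 (median 0.43), with sums of 28782 to 38998 and 42825. All 7 endothelial genes lay above 0 (median 0.70), at sums of 127.9 to 186 and 237. Of these, Cdh5 and Kdr were kept only through their heterozygous means (31.6 and 10.8, against 8.77 and 5.67 in controls). The T cell list had 11 of 12 genes above 0 (median 0.21) and the melanocyte list 4 of 5 (0.20), and both heterozygous sums lay inside the control ranges, at 2525 in 1758 to 2668 and at 2041 in 1325 to 2063. The adipocyte list had 3 of 6 genes above 0 (0.18), with a heterozygous sum of 9865 below all rescaled controls (10137 to 14710). Most of this sum was Dgat2 (10357 in the control and 9046 in the heterozygous mean), which is also in the sebaceous gland list. The adipocyte markers Adipoq, Fabp4 and Cfd summed to 135 in heterozygous epidermis, inside the range of the rescaled controls (51.5 to 334). The erythrocyte list had 0 of 4 above 0 (-0.26), with a sum of 630 below all controls (828 to 1463), and its defining marker Hbb-bs was at 0. Its member Epb42 was kept only through its control mean (10.6, against 9.18 in heterozygous epidermis). All 16 immediate early and heat shock genes lay above 0 (median 0.24), with 0 past the fold. The part of these cell types in the interferon and enzyme changes above was not tested.

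**Figure D4:**
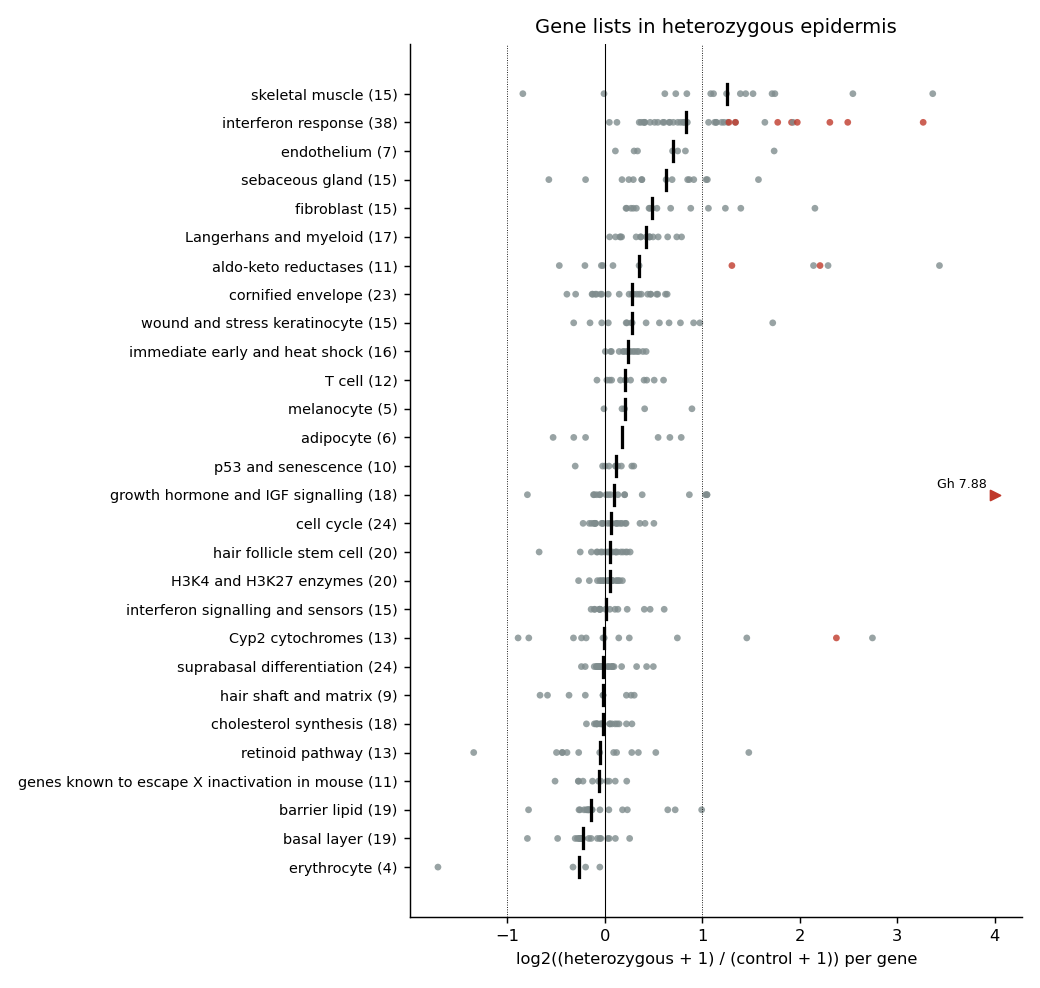
Log2 ratio of heterozygous over control means for each kept gene (points, red where called in the authors' deposited table) of 28 gene lists, with the median of each list as a bar, the number of genes kept in brackets and dotted lines at 2-fold. The skeletal muscle (1.25) and interferon response (0.83) lists have the highest medians, and called genes appear in 4 lists.

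The cKO females, which lose both copies, are set beside the heterozygous ones without a test of the difference, because the 2 comparisons share control libraries 3 and 4. The median of the interferon response list was 0.83 in heterozygous epidermis and 0.89 in cKO 3 to 5, against 0.01 and -0.01 over all genes kept. By gene, Ifi44 stood at 3.27 and 3.50, Oas2 at 2.49 and 2.62, Oas1a at 1.78 and 1.92 and Bst2 at 1.28 and 1.005 (log2 ratios). Gh stood at 7.88 and 7.40, Akr1c18 at 1.31 and 1.24, and Deptor at 0.64 and 0.61. Carns1 (1.35 and 0.59) and Hsd3b6 (1.81 and 1.11) had the higher ratio in heterozygous epidermis. Cornified envelope genes stood at medians of 0.28 in heterozygous and -0.31 in cKO epidermis, with Lce1e at 0.53 and -1.04 and Lce1i at 0.47 and -0.90. The SEs of the heterozygous changes of Lce1e (1.34) and Lce1i (1.51) in the authors' deposited table exceeded these ratios. Summed over this list, the rescaled controls themselves ran from 135759 to 283665. The skeletal muscle list stood at 1.25 and -3.38. For 5 genes known from earlier results to be low in cKO females, the ratios were -0.91 and -3.67 for Gpha2, -0.36 and -2.61 for Acoxl, -0.86 and -2.56 for the carbonyl reductase gene Cbr2, -0.81 and -3.06 for Ccdc27 and -0.89 and -2.56 for Cyp2w1. None of these 5 was called in heterozygous epidermis (adjusted p = 1.0 in the authors' deposited table). In limma over all 5 cKO and 4 control libraries 547 of 13898 genes were called (3.94%), 214 of them higher (1.54%). Of the 25 genes called in heterozygous epidermis 22 could be tested there and 17 were called, and Hsd3b6 (log2 change 0.73, adjusted p = 0.0703), Carns1 (0.22, adjusted p = 0.717), Bst2 (1.02, adjusted p = 0.102), Ass1 and BC021767 were not. With the run of library numbers as a term in the fit, Hsd3b6 (limma adjusted p = 0.0276) and Bst2 (0.00471) passed as well, and Carns1 did not (0.621). In the authors' deposited table of the cKO females Hsd3b6 (adjusted p = 0.0140) and Bst2 (0.0153) also passed. Carns1 (0.664), Ass1 (0.931) and BC021767 (0.824) did not pass there.

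The young males share no library with the heterozygous comparison, so the called genes could be examined there in other libraries. Their controls were Cre-negative and their cKO Cre-positive, so loss of Kdm6a and presence of Cre cannot be told apart there either. limma called 2 of 13743 genes (0.0146%) between male cKO and control libraries, Gh and Akr1c18, and both had also risen in heterozygous females. The authors' deposited male table, made with a different test, also passed Cyp2g1 (adjusted p = 1.06e-06), Carns1 (1.35e-12), Akr1c19 (1.10e-07), Gm1943 (3.26e-08) and Hsd3b6 (5.11e-04). Besides these, Gh and Akr1c18, no gene called in heterozygous epidermis had an adjusted p below 0.05 there. Gh was listed at 0 in all 3 male controls and at 331, 700 and 364 in cKO 1 to 3 (limma adjusted p = 3.05e-04). Akr1c18 was 142, 104 and 141 in controls and 866, 745 and 600 in cKO (log2 change 2.50, SE 0.21, limma adjusted p = 0.0117), and lost the call without control 3 (0.0547), cKO 1 (0.104) or cKO 2 (0.1002). Of the 24 genes that rose in heterozygous epidermis 21 could be tested, 19 of them lay above 0, and for 10 every cKO library exceeded every control (47.6%, against 3.89% of the genes kept). These 10 were Akr1c18, Akr1c19, Marcksl1-ps4, Cyp2g1, Hsd3b6, Carns1, Gm1943, Gh, Igsf9b and the interferon gene Ddx60. Cyp2g1 was 23.4, 0.832 and 15.6 in male controls and 1229, 936 and 748 in cKO (log2 change 6.72, limma adjusted p = 0.121), and Carns1 was 73.1, 48.9 and 45.5 against 400.3, 578 and 252.004 (2.81, limma adjusted p = 0.0954). With the run of library numbers as a term, an alternative chosen after seeing the data, limma called 7 genes in males, among them Cyp2g1 and Carns1 (adjusted p = 0.00725 each), Gm1943 (0.0186) and Akr1c19 (0.0374) beside Gh and Akr1c18. The 8 interferon genes called in heterozygous epidermis were all highest in cKO 1. Ddx60 also exceeded the controls (34.03 to 58.7) in the others, at 288, 61.7 and 72.9. Oas2 was 37.8, 42.6 and 43.1 in controls and 253.9, 41.3 and 41.05 in cKO, and Ifi27l2a was 115.3, 53.01 and 46.4 against 860, 26.6 and 68.3. For the 38 interferon-response genes, the median difference from the control mean was 1.51 in cKO 1, 0.01 in cKO 2 and 0.14 in cKO 3. In controls it was 0.08, 0.05 and -0.00. Without cKO 1 the log2 changes of Ifi27l2a (-0.61), Apol9a (-0.48), Apol9b (-0.73) and Bst2 (-0.23) lay below 0. The whole set of 288 genes at least 2-fold higher in heterozygous epidermis had 179 genes tested in males, of which 58.1% lay above 0 with a median of 0.22, and 15.1% were higher in every cKO library (3.89% of the genes kept). Of the 53 genes at least 2-fold lower, 29 were tested, 18 lay below 0 and 1 was lower in every cKO library (3.45%, against 2.45% of the genes kept).

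**Figure D5:**
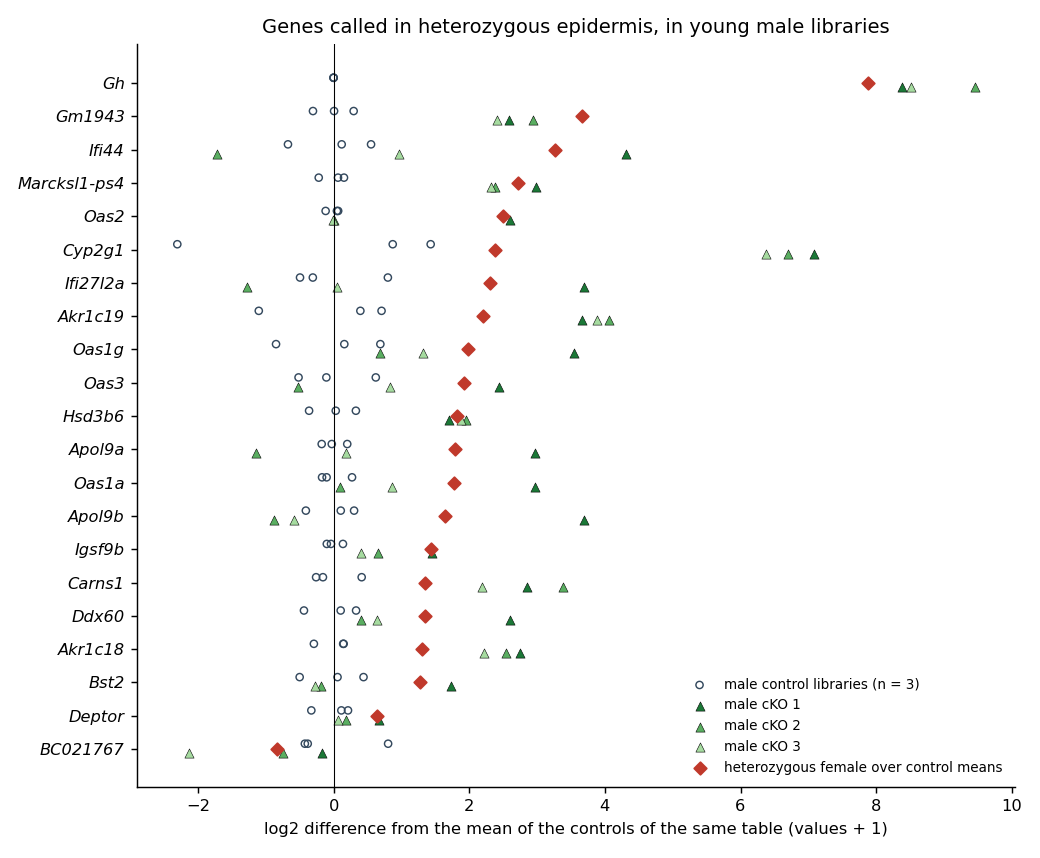
Difference of each young male library from the mean of the male controls on the log2(value + 1) scale, for 21 genes called in heterozygous females (rows), with the heterozygous log2 ratio as diamonds. Gh, Cyp2g1, Carns1, Akr1c18 and Akr1c19 are high in all 3 male cKO libraries, and the interferon genes such as Oas2 and Ifi27l2a in cKO 1.

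The difference between the heterozygous and male changes was tested with a two-sided z test on the log2 changes and SEs of the authors' deposited tables. With Benjamini-Hochberg adjustment 0 of 8417 genes passed (0.0%), and the smallest adjusted p was 0.0544 (Gm14308, whose control mean is uncertain). An unadjusted p below 0.05 was found for 1.33%, a smaller share than chance alone would give. The z scores varied less (SD 0.69) than the SEs imply. The test was thus conservative, and its 0 does not show that the changes are alike. With limma's changes and SEs for the males 0 of 8016 passed, 131 had an unadjusted p below 0.05, and the smallest adjusted p was 0.0847 (Cyp2g1). The authors' deposited tables gave Cyp2g1 a log2 change of 2.38 in heterozygous females and 6.21 in males (difference -3.83, SE 1.12, adjusted p = 0.925) and Carns1 1.35 and 2.89 (difference -1.53, SE 0.48, adjusted p = 1.0). With limma and without any 1 of the 3 male controls, Cyp2g1 passed (adjusted p 6.36e-04 to 0.0230). Without male cKO 1, Oas2 (adjusted p = 0.00300), Ifi27l2a (0.0195) and Apol9a (0.0439) passed, with higher changes in heterozygous females. The males also started from lower levels in these genes, since Cyp2g1 was 1452 to 3444 in young female controls and 0.832 to 23.4 in male controls, on tables that were scaled separately.

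Aged females gave another comparison without a shared library, of 2 controls and 2 cKO. Both aged cKO libraries lacked Xist (17.1 and 14.4, against 20923 and 18431 in controls), so loss of Kdm6a and another difference of the X chromosome cannot be told apart there. Presence of Cre followed the same groups and cannot be told apart from these either. Of the 21 tested genes that rose in heterozygous epidermis, 19 lay above 0 and 13 were higher in both cKO libraries than in both controls (61.9%, against 22.3% of the genes kept). Gh was 0.955 and 0 in aged controls and 820 and 541 in aged cKO, Deptor was 1403 and 1005 against 2301 and 2413, and Igsf9b was 166 and 90.2 against 426 and 541. The interferon response list had a median log2 change of 0.66 in aged females, against 0.01 over the genes kept and tested. Oas1a was 96.6 and 47.4 in controls and 219.7 and 228 in cKO. Ifi44 was low, at 0.967 and 0 against 7.03 and 10.3, and Oas2 was 69.3 and 99.9 against 99.1 and 181 with overlap. Bst2 also overlapped between the aged groups, and the other called interferon genes did not. Cyp2g1, Carns1, Hsd3b6 and Akr1c18 did not separate the aged groups: Cyp2g1 was 9730 and 7976 in controls and 8711 and 10671 in cKO, and Carns1 was 3412 and 2164 against 2796 and 2715. Of the 288 genes past the fold upwards, 240 were tested and 40.0% were higher in both aged cKO libraries (22.3% of the genes kept). Of the 53 past the fold downwards, 43 were tested, 33 lay below 0 and 48.8% were lower in both (21.7% of the genes kept). BC021767 was 537 and 498 in aged controls and 143.5 and 404 in cKO, and Gsta1 was 90.1 and 87.6 against 85.4 and 8.16.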

How the data were processed

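Poly(A) RNA-seq of mouse epidermis was deposited by the authors as tables of normalized signal, counts divided by a size factor per library, for young females, young males and aged females, and as comparison tables with group means of that signal. Per the file headers the comparison tables also hold the authors' log2 fold change, its standard error and a test score, and a deposited p-value and adjusted p-value. The submitters' processing notes name STAR, DESeq2, GRCm38 and mm10. The counting program and annotation are not given in the sources used here. Deposited group means were within 5% of the mean of the library values for 99.7% to 99.8% of genes at 10 or more in young females and males. Among called genes the copies Duxbl2, Gm14308 and Ear3 lay outside. From the heterozygous comparison, 13 gene names that had become dates were left out, and genes after Olfr577 were not analysed here.

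Log2 ratios of deposited means used a pseudocount of 1. A count model had been planned for whole counts. The values were normalized, so limma 3.58.1 (R 4.3.3) with an intensity trend was run on log2(value + 1), on genes that reached 10 in as many libraries as the smaller group has. P-values were adjusted by the Benjamini-Hochberg method with a threshold of 0.05. Library values were rescaled by 1.14 to the heterozygous table where stated, by a fit to its control means. The limma and z tests were tested on simulated data. For the z test the simulated errors were drawn from the SEs, and the real z scores varied less than that (SD 0.69). Read depth per library is unknown, so no counting error is given. No library or gene of unknown group was used, and the aged male table was not used here.

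The members, gene lists and tests were chosen with earlier results of these data known. Named genes were Kdm6a, all genes called in the heterozygous comparison, the 10 largest rises and falls with a larger mean of 50 or more and no predicted name, and the largest changes of each list. The Akr1b3, Akr1cl, growth hormone relatives and side-by-side cKO genes beyond that rule were chosen after their values were seen. Motifs were searched on both strands of RefSeq promoter windows, and positions come from GENCODE vM21 (GRCm38), which held 98.7% of the genes kept. Alternatives were other pseudocounts, minimum means, scalings, thresholds and library sets, and the run of library numbers as a term in the fit, which for males was added after seeing the data.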

Additional observations from a re-analysis of the deposited data

Results flagged for a closer look

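Within the groups of 4 or 5 young female libraries of the called genes, 9 of 49 groups held a library set apart from the others by more than Dixon's 95% critical value, where chance flags about 1 in 20 groups. The values below are normalized counts of the per-library table. Gm14308 was 101.5 in control 3 and 0 in the other controls. Ass1 was 49.3 in control 1 and 0 in the others. Akr1c19 was 106.2 in control 1, with the next control at 34.9. Oas1a was 331 in control 2, with the next at 189. Among cKO libraries, cKO 4 was the highest for Marcksl1-ps4 (122.7, next 62.7), Akr1c19 (316.7, next 201.2), Hsd3b6 (397, next 262) and Carns1 (2251, next 1224). Ifi27l2a was 2013 in cKO 2, with the next at 1111.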

How the results depend on the processing

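The labels carry no replicate numbers that pair libraries, so the run of library numbers served as the block, and the heterozygous comparison could not be blocked because its libraries were used as a group mean. Rises past the fold, 3.42% of the genes tested, became 1.51% with a pseudocount of 10, 5.21% (616 genes) without a minimum mean, 1.47% (103) with either mean at least 50 and 1.94% (156) with both means at least 10. Falls, 0.63% of the genes tested, became 0.143% (12 genes), 2.08% (246), 0.156% (11) and 0.236% (19) under the same 4 settings. In the authors' deposited table the call of 1 fall became 2 at a threshold of 0.1, and the 24 rises became 26. With a control mean of at least 1, an alternative chosen after seeing the data, 20 rises were left. Genes called by limma in young females (547) were 274 to 435 without 1 library each, 123 with the libraries of the 2 later runs of numbers and 2011 with the run as a term in the fit. Of the 17 genes called both there and in heterozygous epidermis, 10 kept the call under every alternative run and 7 lost it at least once. In young males the 2 calls became 4 with a pseudocount of 10, 7 with the run as a term and 1 to 3 without 1 library each. The 0 genes that passed the z test of heterozygous females against males became 1 to 5 without 1 male library each. Log2 changes turned direction for Carns1 in young females without cKO 4 (-0.00434 to 0.35 over the libraries left out), for Duxbl2 in males without control 1 (0.66), control 2 (0.67) or cKO 3 (-2.52 to 1.53), and in males without cKO 1 for Ifi27l2a (-0.61 to 1.87), Apol9a (-0.48 to 1.58), Apol9b (-0.73 to 1.56) and Bst2 (-0.23 to 0.78). The cause of these changes was not tested. No per-library values of the heterozygous libraries were used, so no heterozygous library could be left out.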
